A study of Mus musculus with 11 samples.

Results

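The genes of the creatine kinase and phosphocreatine shuttle were followed through uninjured and injured regions of mouse hearts. They were chosen by symbol and comprised Ckm, Ckmt2, Ckb, Slc6a8, Ak1 and Gatm, 6 of the 15274 genes in the deposited RNA sequencing table, and all 6 passed the filter on low values. The 11 libraries came from 6 mice of 8 weeks and formed 4 groups titled day 7: uninjured regions of C57BL/6J (B6, n = 3), injured regions of B6 (n = 3), uninjured regions of C3H/HeJ (C3H, n = 3) and injured regions of C3H (n = 2). The labels name the mouse, so that both regions were available from 5 animals, and C3H mouse 3 contributed an uninjured region only. No transgene or drug is named for any group. The method of injury was not given in the sources used.

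Libraries held 9699985 to 22138459 reads in genes, and a shuttle gene was covered by 179 to 89317 reads in a library. All 20 cardiomyocyte markers were present in every group, with Myh6 the most abundant. The strains also differed in sex-linked transcripts: normalised counts of Xist were 3.14 to 12.2 in B6 and 1840 to 8478 in C3H, and those of the Y-linked Ddx3y were 1429 to 2221 in B6 and 0.888 to 3.46 in C3H. Strain and sex therefore cannot be told apart in any comparison between the strains. Reads were aligned to mm9, which is of B6, and C3H reads over variants may be undercounted.

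Creatine kinases move a phosphoryl group between ATP and creatine. Phosphocreatine made next to the mitochondrion can thereby restore ATP at the myofibrils and ion pumps, and the heart depends on this exchange when its workload rises. Ckmt2 encodes the sarcomeric mitochondrial enzyme, Ckm the cytosolic muscle enzyme and Ckb the cytosolic brain-type enzyme, which the developing heart also uses. Ak1 encodes the cytosolic adenylate kinase, a parallel route that turns ADP into ATP and AMP. Slc6a8 encodes the creatine transporter of the plasma membrane. Gatm encodes the first enzyme of creatine synthesis, which is known mainly from kidney and pancreas, while heart muscle takes up most of its creatine from blood.

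The 250 bases before the RefSeq start of the muscle isoforms, which moved down together in C3H, and of Ckb and Gatm, which moved up, are shown to set the regulatory DNA of the members beside their values. Each is written 5′ to 3′ in the direction of its gene, in build GRCm38.p6, and capitals mark motif matches on either strand. The Ckm window lies at chr7:19410844-19411093 on the plus strand. Those of Ckmt2 at chr13:91876886-91877135, Ckb at chr12:111672339-111672588 and Gatm at chr2:122611278-122611527 are on the minus strand.
Ckm: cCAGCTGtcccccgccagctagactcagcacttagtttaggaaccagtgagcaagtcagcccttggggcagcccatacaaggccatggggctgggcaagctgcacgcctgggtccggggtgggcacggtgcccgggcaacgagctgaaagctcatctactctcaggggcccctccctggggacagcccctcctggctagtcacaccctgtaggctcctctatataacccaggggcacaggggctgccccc
Ckmt2: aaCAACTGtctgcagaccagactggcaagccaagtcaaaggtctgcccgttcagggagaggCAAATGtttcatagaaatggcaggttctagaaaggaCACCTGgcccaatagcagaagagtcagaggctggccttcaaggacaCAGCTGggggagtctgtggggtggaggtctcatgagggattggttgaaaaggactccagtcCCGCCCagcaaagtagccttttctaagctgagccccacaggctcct
Ckb: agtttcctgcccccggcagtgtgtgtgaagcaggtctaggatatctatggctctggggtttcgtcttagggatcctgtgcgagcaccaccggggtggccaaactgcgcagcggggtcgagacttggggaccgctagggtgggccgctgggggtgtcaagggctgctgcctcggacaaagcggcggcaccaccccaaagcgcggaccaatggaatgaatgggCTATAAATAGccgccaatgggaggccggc
Gatm: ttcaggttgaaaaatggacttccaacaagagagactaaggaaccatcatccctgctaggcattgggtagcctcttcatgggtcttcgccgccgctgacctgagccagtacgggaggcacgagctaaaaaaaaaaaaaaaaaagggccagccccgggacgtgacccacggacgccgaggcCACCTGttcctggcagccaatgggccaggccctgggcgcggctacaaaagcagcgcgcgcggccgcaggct
Of the 6 members, 5 had an entry in the promoter table. The motifs searched on both strands were the E-box (CANNTG), bound by MyoD-family and other helix-loop-helix factors, the MEF2 motif, the CArG box of serum response factor, the half-site of estrogen-related receptors (AAGGTCA), the GC box (GGGCGG) and the TATA box (TATAAA). The Ckmt2 window held 4 E-boxes and a GC box, the Ckm window 1 E-box at -249, and the Gatm window 1 E-box at -71. In the Ckb window a MEF2 match began at -29 and enclosed a TATA box at -28, so that the same letters count for both. Among the 32817 windows of this length in the table, 66.2% held an E-box, 2.92% a MEF2 match, 12.4% a TATA box and 32.7% a GC box. The share was 4.08% for the estrogen-related receptor half-site, found in 1 of 4 Ak1 windows (at -90), and 1.47% for the CArG box, found in none of the members' windows. A match is a description of these letters and no evidence of binding.

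In uninjured B6 regions the mitochondrial isoform stood highest per length of exon, with all annotated exons of a gene counted. Ckmt2 had 44696 ± 15528 normalised counts per kilobase (SD, n = 3), rank 14 of 14716 genes ranked this way. Ckm had 12085 ± 1634 (rank 69) and Ak1 5943 ± 468 (rank 153). These genes of muscle energy transfer were followed at some distance by the transporter Slc6a8 with 802 ± 43.4 (rank 1076), Ckb with 362 ± 91.5 (rank 2304) and Gatm with 93.5 ± 28.3 (rank 6060). The order of the 6 genes was the same in uninjured C3H and injured B6 regions. In injured C3H regions (n = 2) Ckb, at 1156 ± 158 per kilobase, stood above Slc6a8, at 895 ± 10.7, and the ranks of Ckb and Gatm among all genes were 521 and 1504. Ckmt1, the ubiquitous mitochondrial isoform, averaged 7.30 to 30.7 normalised counts in the groups, against 16964 to 66418 for Ckmt2.

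**Figure D1:**
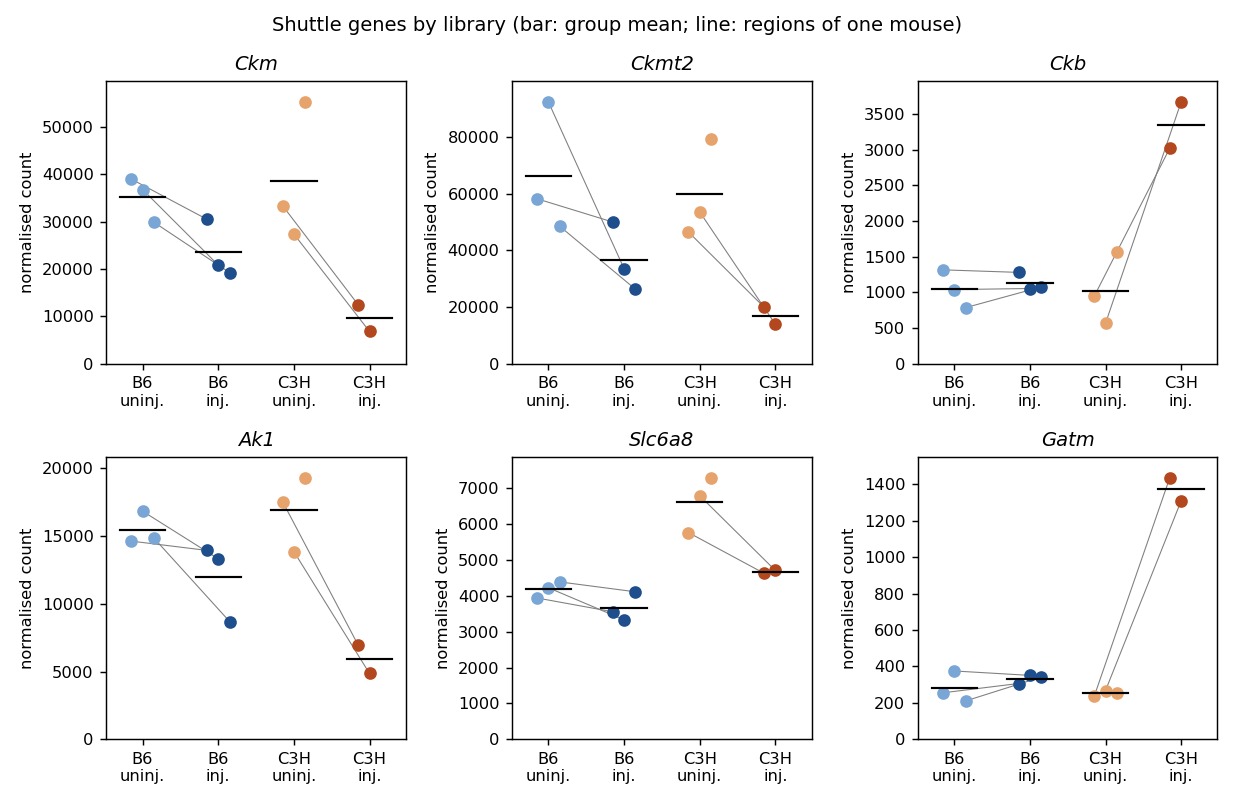
Normalised counts (vertical axes, from 0) of the 6 shuttle genes in each of the 11 libraries, by strain and region. Points are libraries, bars are group means, and lines join regions of the same mouse. The injured libraries lay outside the uninjured ones for 6 of 6 genes in C3H (3 against 2 libraries), where 59.3% of all genes tested did, and for 1 of 6, Ak1, in B6 (3 against 3), where 17.5% did.

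Ckm fell in injured C3H regions. Its normalised counts were 38984, 36769 and 29860 in uninjured B6, 30496, 20822 and 19241 in injured B6, 33383, 27383 and 55260 in uninjured C3H, and 12457 and 6808 in injured C3H. Both injured C3H libraries were lower than the other 9, whereas the B6 groups overlapped. The log2 difference between injured and uninjured regions was -2.005 in C3H (SE 0.37, adjusted p = 0.00233 by limma, Benjamini-Hochberg over 14751 genes), a 4.01-fold lower level. In B6 it was -0.60 (SE 0.33, adjusted p = 0.435), with a 95% interval from -1.33 to 0.12. After quantile normalization it was -0.21 in B6 and -1.47 in C3H (adjusted p = 0.00656 in C3H). Within animals the injured region was lower in each of the 5 hearts with both regions, with log2 differences of -0.35, -0.82 and -0.63 in B6 and of -1.42 and -2.01 in C3H. In these tissue libraries fewer cardiomyocytes and less message per cardiomyocyte cannot be told apart, which applies to every level given here. Nothing in the labels beyond the mouse number says how samples were taken. The p-values of the main model measure the spread between these samples, with both regions of a mouse taken as independent.

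The mitochondrial partner Ckmt2 took a similar course. Its counts were 58261, 92464 and 48530 in uninjured B6, 50056, 33584 and 26323 in injured B6, 46565, 53639 and 79308 in uninjured C3H, and 19997 and 13931 in injured C3H. The injured C3H libraries were again the lowest of all, and one injured B6 library lay within the uninjured range. Injury in C3H came with a log2 difference of -1.80 (SE 0.40, adjusted p = 0.00562), 3.49-fold lower. Without C3H injured replicate 2 the value was -1.54 and the call was lost (adjusted p = 0.0743). In B6 the difference was -0.85 (SE 0.36, adjusted p = 0.365), the largest of any shuttle gene in that strain, with an unadjusted p of 0.033. After quantile normalization it was -0.47 in B6 and -1.24 in C3H (adjusted p = 0.0137 in C3H). Within the C3H hearts with both regions it was -1.22 and -1.94.

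Ak1, the adenylate kinase of the muscle cytosol, fell as well in C3H. Counts were 14602, 16804 and 14822 in uninjured B6, 13918, 13299 and 8682 in injured B6, 17516, 13832 and 19273 in uninjured C3H, and 6945 and 4855 in injured C3H. It was the only member whose B6 groups did not overlap, with all 3 injured libraries below the uninjured ones. The log2 difference was -1.53 in C3H (SE 0.28, adjusted p = 0.00225), 2.88-fold lower, and -0.39 in B6 (SE 0.25, adjusted p = 0.483). After quantile normalization the C3H value was -1.01 (adjusted p = 0.00895) and the B6 value 0.02, and the B6 value was -0.18 without B6 injured replicate 3.

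Ckb moved against the muscle isoforms. Its counts were 1316, 1039 and 786 in uninjured B6, 1280, 1054 and 1076 in injured B6, 945, 566 and 1564 in uninjured C3H, and 3022 and 3669 in injured C3H. Both injured C3H libraries exceeded the other 9, and the B6 groups covered the same range. The log2 difference in C3H was 1.82 (SE 0.36, adjusted p = 0.00304), 3.53-fold higher, and it was 1.68 and 2.69 within the 2 C3H hearts with both regions. In B6 it was 0.14 (SE 0.32, adjusted p = 0.857), with an interval from -0.55 to 0.84, and leaving out 1 library gave from -0.05 without B6 uninjured replicate 3 to 0.33 without B6 uninjured replicate 1.

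Gatm had the largest change of the 6 in C3H. Counts were 256, 375 and 211 in uninjured B6, 307, 351 and 342 in injured B6, 236, 268 and 257 in uninjured C3H, and 1435 and 1309 in injured C3H. The 9 other libraries all stayed at or below 375, and the 2 injured C3H libraries were close to each other. The log2 difference in C3H was 2.43 (SE 0.25, adjusted p = 7.75e-05), 5.40-fold higher. In B6 it was 0.29 (SE 0.22, adjusted p = 0.564), with an interval from -0.20 to 0.78, and it was 0.52 without B6 uninjured replicate 2 and 0.10 without B6 uninjured replicate 3. Gamt, which methylates the product of Gatm to creatine, was at 129 ± 73.5 in uninjured and 137 ± 27.7 in injured C3H regions, a log2 difference of 0.23 (SE 0.42, adjusted p = 0.707).

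Slc6a8, the route by which heart muscle obtains creatine, had the smallest difference of the 6 in C3H. Counts were 3934, 4218 and 4381 in uninjured B6, 3551, 3327 and 4106 in injured B6, 5756, 6780 and 7281 in uninjured C3H, and 4622 and 4701 in injured C3H. All C3H libraries lay above all B6 libraries, and within C3H the injured ones were lower than the uninjured ones. The log2 difference in C3H was -0.50 (SE 0.20, adjusted p = 0.0784), with an interval from -0.93 to -0.06, and it depended on the setting. With animal as a random replicate block it was -0.47 and passed (adjusted p = 0.0383), with a fixed replicate block it was -0.42 (adjusted p = 0.147), and after quantile normalization it was -0.12 (adjusted p = 0.664). In B6 it was -0.19 (SE 0.18, adjusted p = 0.620), and 0.01 after quantile normalization.

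**Figure D2:**
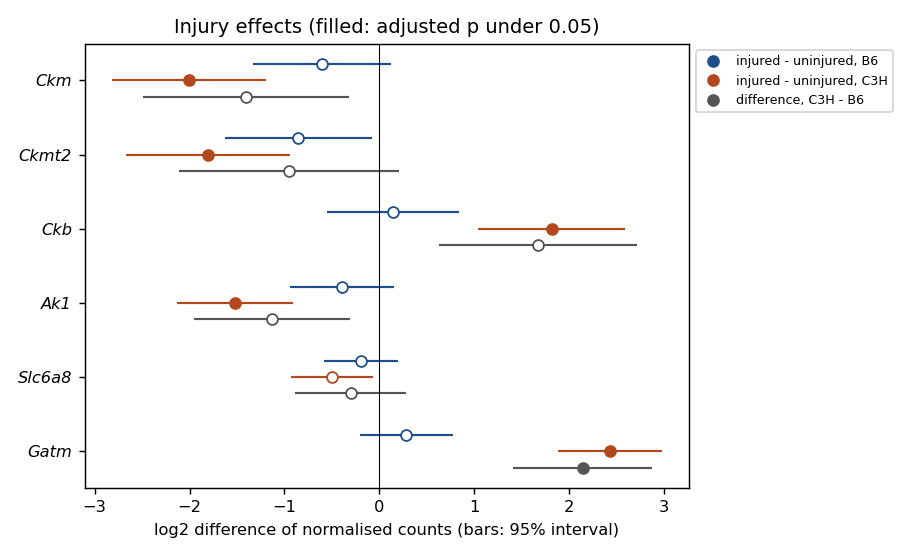
Log2 differences of normalised counts (horizontal axis) with 95% intervals for the 6 shuttle genes: injured minus uninjured in B6 and in C3H, and the difference between these effects. Filled points have an adjusted p under 0.05: 5 genes for injury in C3H, none in B6, and Gatm alone for the difference.

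Counted over the shuttle, injury in C3H changed 5 of 6 members, 2 upwards and 3 downwards, where 30.7% of all genes tested passed, 15.3% higher and 15.4% lower. Groups did not overlap for 6 of 6 members in C3H, against 59.3% of all genes, and for 1 of 6 in B6, against 17.5%, which is near the background. Injury in B6 changed 0 of 6 members by limma and 0 by edgeR, where 0.0136% of all genes passed, and 1 member and 1979 of all genes had an unadjusted p under 0.05. Whether the strains differed in the response was tested with an interaction term, which passed for 1 of 6 members against 1.57% of all genes. That gene was Gatm, whose response was 2.15 higher in C3H on the log2 scale (SE 0.34, adjusted p = 0.0105). Without C3H injured replicate 2 it was 2.21 with an adjusted p of 0.0728.

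For Ckb the interaction was 1.68 (SE 0.48, adjusted p = 0.126), and it passed with animals as a fixed replicate block (2.04, adjusted p = 0.00868), as a random replicate block (1.82, adjusted p = 0.0188) and without C3H uninjured replicate 3 (2.04, adjusted p = 0.0471). The genes that fell in C3H had interactions of -1.40 for Ckm (SE 0.50, adjusted p = 0.217), -1.13 for Ak1 (SE 0.38, adjusted p = 0.187) and -0.95 for Ckmt2 (SE 0.53, adjusted p = 0.452). That of Slc6a8 was -0.30 (SE 0.27, adjusted p = 0.662). The fall of Ckm, Ckmt2 and Ak1 is thus shown in C3H, and a difference from B6 is not.

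Between uninjured regions of C3H and B6 no shuttle gene passed the test (0 of 6 by limma and by edgeR), where 3.1% of all genes did, and 1 member had an unadjusted p under 0.05, as had 2408 of all 14751 genes. Ckm, Ckmt2, Ckb, Ak1 and Gatm had overlapping groups and log2 differences from -0.13 to 0.12, while 16.9% of all genes had groups that did not overlap. The X-linked Slc6a8 was higher in each C3H library, with a log2 difference of 0.66 (SE 0.18, adjusted p = 0.0745) and an interval from 0.27 to 1.04. In that gene the strain and the sex-linked transcripts above moved together, and their parts in the difference cannot be told apart.

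Between injured regions, C3H and B6 groups did not overlap for any of the 6 members, where 49.1% of all genes had such groups, and 2 members passed, where 7.06% of all genes did. Gatm was higher in C3H by 2.04 (SE 0.25, adjusted p = 0.000772), 4.11-fold. Ckb was higher by 1.56 (SE 0.36, adjusted p = 0.0247), 2.94-fold, and its call was lost without any single library of these groups, with adjusted p from 0.0512 without B6 injured replicate 3 to 0.292 without C3H injured replicate 2. Ak1 at -1.01 (SE 0.28, adjusted p = 0.0504) and Ckm at -1.32 (SE 0.37, adjusted p = 0.0533) lay just outside the threshold, and both passed after quantile normalization, at 0.0369 for Ak1 and 0.0395 for Ckm. Ak1 also passed with pseudocount 5 (0.0489), with edgeR (0.0470) and without B6 injured replicate 3 (0.0311). Ckm also passed with only the groups compared (0.0379). Without B6 injured replicate 1 they were at 0.181 for Ak1 and 0.194 for Ckm. Ckmt2 was at -1.08 (SE 0.40, adjusted p = 0.122) and Slc6a8 at 0.35 (SE 0.20, adjusted p = 0.306).

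The makeup of the creatine kinase message shifted within libraries. Per length, Ckb made up 0.857%, 0.477% and 0.629% of the 3 creatine kinases in uninjured B6 and 0.757%, 0.428% and 0.741% in uninjured C3H. It made up 0.992%, 1.21% and 1.51% in injured B6, and 5.56% and 9.76% in injured C3H. The shares of both injured groups lay above those of their uninjured groups without overlap, and those in C3H were the highest. The size of each share depends on the exon lengths used, which join all annotated exons of a gene. The sum of the 3 kinases per kilobase ran from 43122 to 72880 in uninjured C3H and was 18777 and 12979 in injured C3H, so that the larger share of Ckb stood beside a smaller total. In B6 the sum was 43181 to 75204 in uninjured and 24691 to 44596 in injured regions, which overlapped. The counts of Ckb itself also overlapped between the B6 regions.

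**Figure D3:**
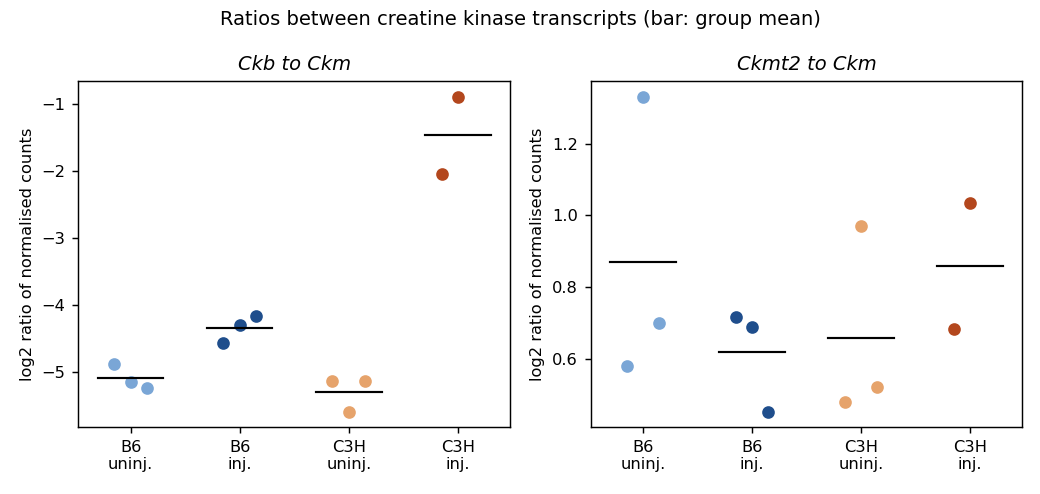
Log2 ratios of normalised counts (vertical axes) by library, with bars at group means. Ckb to Ckm averaged -5.09 and -5.29 in uninjured B6 and C3H, -4.34 in injured B6 and -1.47 in injured C3H, while the groups overlapped for Ckmt2 to Ckm.

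The ratio of Ckb to Ckm counts was 0.0264 to 0.0338 in uninjured B6, 0.0420 to 0.0560 in injured B6, 0.0207 to 0.0283 in uninjured C3H, and 0.243 and 0.539 in injured C3H. On the log2 scale its group means were -5.09 ± 0.18, -4.34 ± 0.21, -5.29 ± 0.26 (SD, n = 3 each) and -1.47 ± 0.81 (n = 2). The ratio of mitochondrial to cytosolic muscle isoform stayed within one band: log2 Ckmt2 to Ckm was 0.58 to 1.33 in uninjured B6, 0.45 to 0.71 in injured B6, 0.48 to 0.97 in uninjured C3H, and 0.68 and 1.03 in injured C3H. The Ckb ratio thus separated the regions in both strains, with no test, and the Ckmt2 ratio did not. In B6 the log2 ratio was 0.75 higher in injured regions, where Ckm was at -0.60 and Ckb at 0.14. Neither gene was called there, and after quantile normalization Ckm was at -0.21 and Ckb at 0.24. The part of each gene in the B6 shift thus depended on the normalization. No share over all genes was computed for such ratios.

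Markers of heart muscle fell in the same libraries. Of 20 cardiomyocyte markers, 16 fell and 0 rose in injured C3H regions, with a median log2 difference of -1.53 against 0.01 for all genes, and their summed level was 2341184 to 2897158 in uninjured and 762571 to 832556 in injured libraries. In B6 the sums were 2036114 to 2762019 and 1301568 to 1771728, with a median of -0.67 and 0 markers called. No cardiomyocyte marker was at 0 in any group. The part of this in the fall of the muscle enzymes was not tested, but the members can be set against the markers within each library.

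Relative to the mean log2 level of those markers, Ak1 was at -2.14 ± 0.21 in uninjured and -2.14 ± 0.34 in injured C3H regions, a difference of 0.00. Ckmt2 was at -0.34 ± 0.39 and -0.61 ± 0.35, and Ckm at -0.99 ± 0.49 and -1.47 ± 0.60. For these 3 genes the C3H libraries overlapped on this scale, and so did the B6 libraries. Slc6a8 stood higher against the markers in injured C3H regions, from -3.48 ± 0.19 to -2.45 ± 0.04, while its own normalised count was lower. Ckb went from -6.29 ± 0.69 to -2.94 ± 0.22 and Gatm from -8.18 ± 0.13 to -4.22 ± 0.07. In B6, Gatm went from -7.74 ± 0.33 to -6.88 ± 0.21, Ckb from -5.83 ± 0.46 to -5.11 ± 0.04 and Slc6a8 from -3.81 ± 0.13 to -3.43 ± 0.20. In both strains the injured libraries lay above the uninjured ones for Ckb, Slc6a8 and Gatm. No share over all genes was computed on this scale. All these values are descriptions, and the pieces of heart differed in cell makeup.

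**Figure D4:**
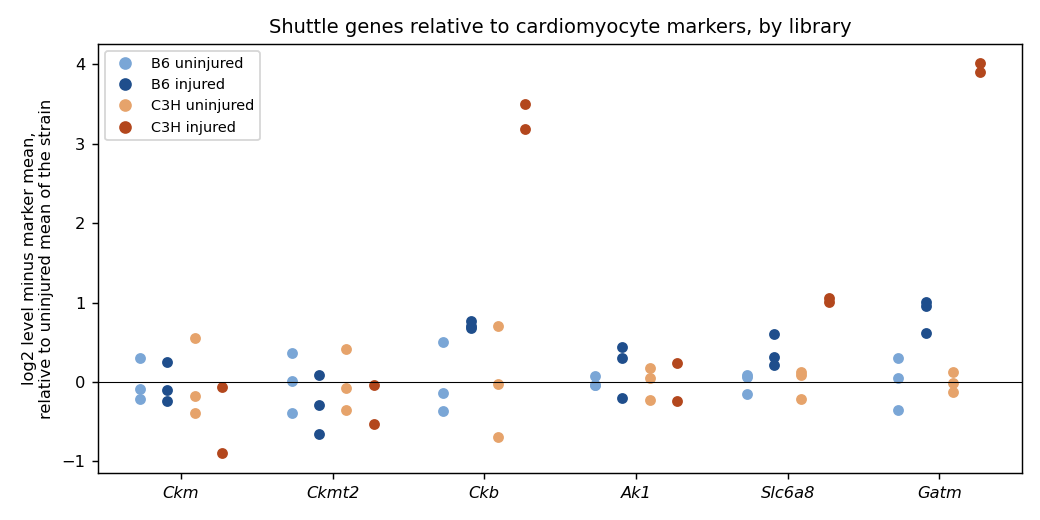
Log2 level of each shuttle gene minus the mean log2 level of 20 cardiomyocyte markers in the same library, relative to the uninjured mean of the strain (vertical axis). Points are libraries. In both strains the injured libraries overlap the uninjured ones for Ckm, Ckmt2 and Ak1 and lie above them for Ckb, Slc6a8 and Gatm.

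Markers of other cells rose beside Ckb and Gatm. Of 12 macrophage markers 10 rose and 0 fell in injured C3H regions (median 2.55), and their summed level went from 14646 to 26615 in uninjured to 79933 to 141099 in injured libraries, with Lyz2 the most abundant. Of 9 tested markers of osteoclast-type cells 8 rose (median 3.63), and the sum of the list went from 1185 to 1565 up to 10321 to 29989; Calcr was at 0 in uninjured C3H and in both B6 groups. Of 12 fibroblast markers 8 rose (median 2.03), with sums of 54110 to 287759 in uninjured and 595106 to 846121 in injured libraries. Of 10 markers of neurons and Schwann cells, tissues in which Ckb is prominent, 3 rose (Mbp, Ncam1 and Npy) and 0 fell. The median was 0.81, and 4 of the 10 had a difference below 0. The sum of the list was 506 to 701 in uninjured and 1944 to 2293 in injured libraries, with Ncam1 the most abundant. In B6 none of these lists had a called gene, and their medians were 0.64, 0.56, 0.73 and 0.52 in the same order. Macrophage sums there were 26109 to 37561 in uninjured and 41373 to 57579 in injured libraries. Gatm counts in B6 were 211 to 375 in uninjured and 307 to 351 in injured libraries. The part of these cells in the rise of Ckb and Gatm was not tested.

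Markers of skeletal muscle, another source of Ckm, summed to 122 to 580 over 8 genes in all libraries, with 0 of 8 called in C3H. Of 8 symbols of kidney and liver, sites of creatine synthesis, only 3 were found. They summed to 0.786 to 140, and Apoa1 was at 0 in both B6 groups and in injured C3H. The part of such tissue in the Gatm level was not tested. In the injured C3H libraries the sums were 294 and 375 for skeletal muscle and 6.05 and 10.6 for kidney and liver. Of the other marker lists, endothelial cells had 3 of 10 genes lower, smooth muscle and mural cells 2 higher and 3 lower of 10, neutrophils 1 of 6 higher, atrial muscle 2 of 6 lower and adipocytes 1 of 3 lower, and those of epicardial, erythroid and T and B cells had 0 called. Over all genes tested, 15.3% were higher and 15.4% lower, and these small lists were not tested against those shares.

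The wider phosphotransfer system was described with 7 lists. In B6, 0 genes of any of them passed, and in C3H 15.4% of all genes tested fell and 15.3% rose. In C3H, the list nearest to Ckmt2, nucleotide exchange of the mitochondrion, had 1 gene higher and 7 lower of 12 tested, with a median of -1.29. The heart adenine nucleotide translocator Slc25a4 fell by 2.14 (SE 0.38, adjusted p = 0.00205), from 136715 ± 20874 to 30851 ± 591 normalised counts. The outer-membrane pores Vdac1 (-1.42), Vdac2 (-1.17) and Vdac3 (-1.60), the phosphate carrier Slc25a3 (-1.60), another translocator, Slc25a5 (-0.90), and the coenzyme A carrier Slc25a42 (-1.40) also fell. The gene that rose was Slc25a24, a calcium-regulated ATP-Mg/phosphate carrier, by 1.81 (SE 0.20, adjusted p = 0.000113), from 205 ± 13.9 to 723 ± 73.6.

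Among adenylate and other nucleotide kinases, 9 of 18 fell and 2 rose in C3H (median -0.58). Besides Ak1, those that fell included the mitochondrial Ak4 (-1.57), Ak6 (-1.28), the guanylate kinase Guk1 (-1.34), the nucleoside diphosphate kinases Nme2 (-1.51), Nme3 (-1.31) and Nme6 (-1.49), and the adenosine kinase Adk (-1.37). Ak5 rose by 3.09 (SE 0.56, adjusted p = 0.00209) from a low level, 5.61 ± 1.91 to 57.8 ± 30.8 normalised counts, and Ak8, which also passed, reached only 13.5 ± 1.93. The list of creatine synthesis and transport also held transporters of other substrates. Of its 9 genes, 3 rose and 0 fell (median -0.18), where 15.3% of all genes rose and 15.4% fell. The 3 that rose were Gatm, the taurine transporter Slc6a6, a relative of Slc6a8, at 1.09 (SE 0.39, adjusted p = 0.0496), and the proline transporter Slc6a7, at 25.3 ± 11.3 normalised counts in injured C3H regions. The creatine kinase list itself held the 3 members described and Ckmt1, which did not pass.

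Of 10 ATPases that draw on the shuttle, 3 fell and 2 rose in C3H (median -0.58), where 15.4% of all genes fell and 15.3% rose. The myosin heavy chain Myh6, also among the cardiomyocyte markers, fell (-1.43), and so did the sodium pump subunit Atp1b1 (-0.85). The plasma membrane calcium pumps Atp2b1 (1.03) and Atp2b4 (1.19) rose. Myh6 and Atp1b1 did not pass after quantile normalization. With only the groups compared Myh6 and Atp2b4 did not pass. Myh6 was also lost with a fixed replicate block, and Atp2b4 with edgeR. The sarcoplasmic calcium pump Atp2a2 had a log2 difference of -1.23 (SE 0.45, adjusted p = 0.0574) and did not pass. Of 15 genes of AMP deamination and AMP-activated kinase, 3 fell (Prkab1 at -0.69, Prkag1 at -0.97 and the upstream kinase Stk11 at -1.04) and 2 rose (the AMP deaminase Ampd2 at 1.46 and the adenosine deaminase Ada at 2.69), with a median of 0.00, shares near the 15.4% lower and 15.3% higher of all genes.

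Of 15 regulators of muscle energy genes, 6 fell and 0 rose in C3H, with a median of -0.68. The estrogen-related receptors Esrra, Esrrb and Esrrg, nuclear receptors of mitochondrial and muscle energy genes, all fell, with log2 differences of -1.52 for Esrra (SE 0.25, adjusted p = 0.0011), -1.11 for Esrrb and -0.98 for Esrrg. The mitochondrial transcription factor Tfam (-1.23), serum response factor, Srf (-0.96), and the cardiac factor Gata4 (-0.98) fell too. The coactivator Ppargc1a was at -0.86 (SE 0.34, adjusted p = 0.0703). Of the 36 called genes of these lists other than the members, 12 still passed without C3H injured replicate 2, 22 without C3H injured replicate 1 and 23 without C3H uninjured replicate 3, among them Slc25a4, Slc25a24 and Esrra each time.

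**Figure D5:**
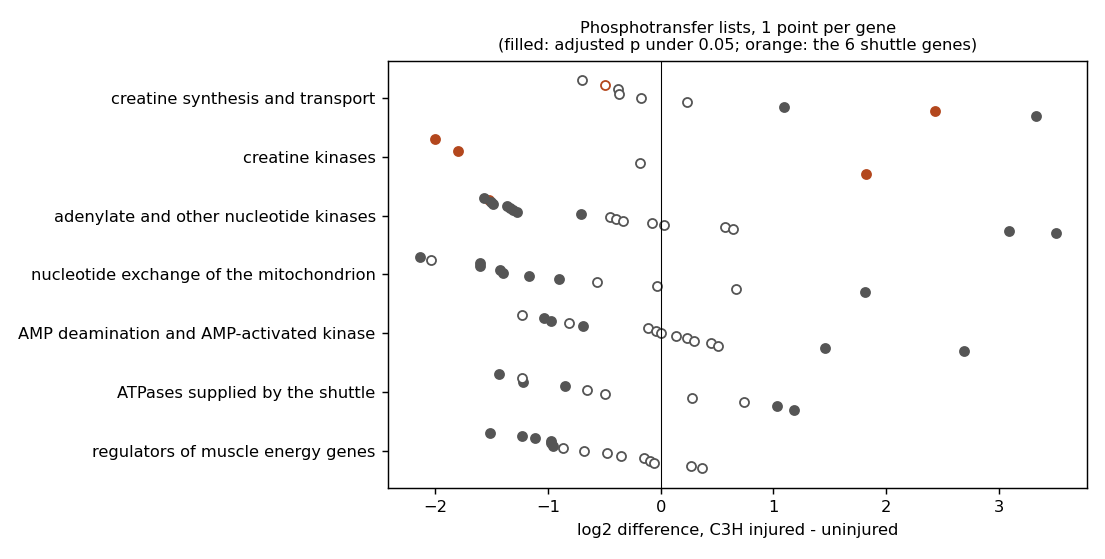
Log2 differences between injured and uninjured C3H regions (horizontal axis), 1 point per tested gene in each of 7 phosphotransfer lists (vertical axis). Filled points have an adjusted p under 0.05 and orange points are the 6 shuttle genes; 7 of 12 genes of mitochondrial nucleotide exchange fell and 1 rose.

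Across the 11 libraries, Ckm correlated with Ckmt2 at r = 0.95 and with Ak1 at 0.96, and Ckb with Gatm at 0.86, while Slc6a8 lay between -0.12 and 0.25 with the other 5. These are descriptions over libraries that fall into 4 groups and share animals. Among 12015 genes with a mean of at least 50, the genes nearest in pattern to Ckm were Cyc1 (r = 0.994), Mrpl44 and Tecr, and those nearest to Ckmt2 were Fh1 (0.996), Ndufab1 and Mmadhc. Cyc1 and Ndufab1 encode parts of the respiratory chain and Fh1 the fumarase of the citric acid cycle. Nearest to Ak1 were Adck3 (0.985), Timmdc1 and Smim5, and nearest to Slc6a8 Cdk5rap1 (0.970), Wbp2 and Lrrc4b. For Ckb they were Pgam1 (0.970), a glycolytic phosphoglycerate mutase, Glmp and the cytokine Tgfb1. For Gatm they were Spp1 (0.981), which encodes osteopontin, the interleukin-1 receptor antagonist Il1rn, and the adhesion molecule Alcam.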

How the data were processed

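RNA sequencing of 11 heart libraries was analysed. Per the submitters' processing notes, reads were aligned with TopHat2 2.0.11 to mm9, counted with HTSeq 0.6.1 and normalised with DESeq; the annotation, strand setting and filters were not given there. The deposited signal is gene-level reads divided by 1 size factor per library (whole reads in 100% of values at a tolerance of 1e-06). Members and lists were chosen with earlier results of these data known.

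Log2(normalised count + 1), which understates changes of low genes, was modelled by limma 3.58.1 under R 4.3.3 (4 group means, mean-variance trend, 7 residual degrees of freedom) over 14751 genes reaching 10 in 2 or more libraries, with Benjamini-Hochberg adjustment and a two-sided threshold of 0.05. Of 245 list symbols 212 were found and 33 were not analysed here. Named were the members, list genes called in C3H and the smallest p of each list, the most abundant marker, and the 3 genes most like each member; list genes beyond 4 per list, and Gamt, Atp2a2, Ppargc1a and Ckmt1, were named after their values were seen. Exon lengths are from GENCODE and join all annotated exons of a gene. They were 2913 bases for Ckm, 2895 for Ckb and 1486 for Ckmt2. A gene whose transcript in use is shorter than its joined exons is understated per kilobase. Orders, ranks and shares across genes depend on these lengths. The main model held no animal term. Alternatives included edgeR 4.0.16 on recovered reads and animal as a fixed or random replicate block. Regions of the same mouse had residual correlations of 0.276, -0.0140 and 0.524 in B6 and 0.305 and 0.575 in C3H (random block 0.392), the mouse being named in the labels. Some list genes are not reported here by name.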

Additional observations from a re-analysis of the deposited data

Results flagged for a closer look

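The injury effect on Gatm differed between the strains: it was 2.15 higher in C3H than in B6 on the log2 scale by the interaction term of limma (SE 0.34, adjusted p = 0.0105), higher in both C3H animals with both regions (2.60 and 2.28) than in the B6 animals (0.26, -0.10 and 0.70). The call was lost without C3H injured replicate 2, and strain and sex cannot be told apart in this difference. Groups of 2 or 3 libraries are too small for a test of single outlying samples.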

How the results depend on the processing

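The 5 members called for injury in C3H kept their direction under each alternative run, and the call of Ckmt2 was the one lost. The count of members for the interaction was 2 instead of 1 with the fixed replicate block and with the random replicate block, and 0 to 2 when 1 library was left out. Between injured regions 4 members instead of 2 passed after quantile normalization. The count was 3 with pseudocount 5, with only the groups compared and with edgeR, and 1 to 2 when 1 B6 library was left out. With the random replicate block 6 instead of 5 members passed for injury in C3H, and the replicate blocks changed no other count of members.

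Quantile normalization moved the median of all genes for injury in C3H from 0.01 to -0.11. Values near 0 changed sign. For injury in B6 these were Slc6a8 (0.0103) and Ak1 (0.0199) after quantile normalization and Ckb, which ran from -0.0460 to 0.325 when 1 library was left out. Between uninjured regions Ckb was 0.0085 with edgeR, and leaving out 1 library gave -0.210 to 0.296 for Ckm, -0.356 to 0.133 for Ckmt2, -0.485 to 0.247 for Ckb and -0.291 to 0.124 for Gatm. The cause was not tested.

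Over all genes, called counts went from 2 to 20 (fixed replicate block) and 16 (random replicate block) for injury in B6, from 4527 to 1703 for injury in C3H without C3H injured replicate 2 (2788 without replicate 1), from 231 to 491 and 777 with the fixed and random replicate blocks for the interaction, and from 458 to 191 between uninjured regions with only the groups compared. When 1 library was left out they ran from 1703 to 4643 for injury in C3H, 11 to 272 for the interaction, 213 to 788 between uninjured regions and 100 to 870 between injured regions (1042 with all libraries).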
